A study of Mus musculus with 2 samples.

Results

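Gata1 binding was examined at 9 mouse genes that encode the surface receptors and secreted chemokines of platelets. They are Itga2b and Itgb3, the subunits of the platelet fibrinogen receptor, Gp1ba, Gp1bb, Gp9 and Gp5, the subunits of the von Willebrand factor receptor complex GPIb-IX-V, Gp6, the collagen receptor, and Pf4 and Ppbp, chemokines stored in platelet granules. The genes were listed by name, with earlier results of these data known, out of 21792 protein-coding genes. A peak was assigned to a gene when its midpoint lay in the gene body or within 50 kb of either end. By this rule 7 of the 4135 Gata1 peaks lay at the platelet genes, spread over 4 of the 9. By the same rule 32.0% of all protein-coding genes had a peak.

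The peaks came from chromatin immunoprecipitation followed by sequencing (ChIP-seq), which locates a protein on DNA, in cells of embryoid bodies, the aggregates that embryonic stem cells form as they differentiate. The cells had differentiated towards blood for 5 days, were sorted as Runx1-ires-GFP+/Gata1::mCherry+ and are called primitive erythroid in the series, meaning the earliest red cells that an embryo makes. The Gata1 ChIP library and the input chromatin library are each 1 library from cells with this phenotype, so both carry both reporters. The ChIP pooled cells from several sorts, and the input is not analysed here.

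Gata1 is a zinc finger transcription factor that binds GATA sequences and is required for the maturation of both red cells and megakaryocytes, the large bone marrow cells that shed platelets. Red cells and megakaryocytes arise from shared progenitors, and in the embryo the integrin alphaIIb subunit (CD41) also marks early blood progenitors before platelets are made. The peak list holds positions only, so it does not show whether any of these genes was expressed, and the labelled cell type could not be checked against marker expression. Each site is known only as called or not called, in a single ChIP library with no replicate, and read depth is unknown.

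Promoters of the platelet genes are shown first, because the Gata1 peaks of some of these genes lie on them. The RefSeq promoter table (GRCm38.p6, the assembly also called mm10) held 8 of the 9 genes; Itgb3 was not among them. Each sequence runs 5′ to 3′ on the gene's strand, from 250 bases before the annotated transcription start to 50 bases from it. Capitals mark GATA, or TATC where the motif is on the opposite strand. The Gp1ba promoter lay wholly inside a Gata1 peak interval, and the first 125 bases of the Itga2b promoter lay inside another. Gp5 and Gp6 had no Gata1 peak in their windows and are shown for comparison, since their promoters also hold GATA letters. Gp9 had a peak that lay upstream of the promoter shown.
Gp1ba, chr11:70638872-70639171, plus strand: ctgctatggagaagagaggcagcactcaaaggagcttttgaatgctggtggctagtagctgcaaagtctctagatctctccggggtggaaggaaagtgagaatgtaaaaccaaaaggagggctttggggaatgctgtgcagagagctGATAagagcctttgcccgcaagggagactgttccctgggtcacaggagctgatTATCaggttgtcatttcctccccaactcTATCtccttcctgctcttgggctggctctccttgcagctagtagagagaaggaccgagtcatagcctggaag
Itga2b, chr11:102469834-102470133, minus strand: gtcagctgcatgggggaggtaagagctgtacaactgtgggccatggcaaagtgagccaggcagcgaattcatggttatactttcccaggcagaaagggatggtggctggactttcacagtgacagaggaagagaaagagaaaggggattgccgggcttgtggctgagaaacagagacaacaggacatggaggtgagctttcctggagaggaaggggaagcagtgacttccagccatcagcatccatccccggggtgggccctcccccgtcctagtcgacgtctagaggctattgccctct
Gp9, chr6:87777820-87778119, plus strand: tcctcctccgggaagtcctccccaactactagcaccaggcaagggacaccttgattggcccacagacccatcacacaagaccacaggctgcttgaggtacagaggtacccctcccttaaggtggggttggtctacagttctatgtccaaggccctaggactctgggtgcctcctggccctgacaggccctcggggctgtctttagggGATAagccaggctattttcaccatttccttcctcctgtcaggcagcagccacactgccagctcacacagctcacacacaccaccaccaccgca
Gp5, chr16:30310732-30311031, minus strand: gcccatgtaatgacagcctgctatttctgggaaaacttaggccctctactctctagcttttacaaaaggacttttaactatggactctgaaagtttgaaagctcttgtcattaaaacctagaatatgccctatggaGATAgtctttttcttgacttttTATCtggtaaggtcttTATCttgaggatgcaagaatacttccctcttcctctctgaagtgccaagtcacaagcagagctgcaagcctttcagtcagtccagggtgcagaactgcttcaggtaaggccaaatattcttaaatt
Gp6, chr7:4397695-4397994, minus strand: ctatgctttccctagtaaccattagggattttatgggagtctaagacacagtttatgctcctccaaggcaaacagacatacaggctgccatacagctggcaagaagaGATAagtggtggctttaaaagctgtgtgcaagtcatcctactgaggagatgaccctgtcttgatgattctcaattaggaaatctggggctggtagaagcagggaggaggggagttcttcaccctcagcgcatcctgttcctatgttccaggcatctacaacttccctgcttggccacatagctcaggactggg

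Itga2b and Itgb3 both carried Gata1 peaks. Their products pair on the platelet surface as the integrin that binds fibrinogen and links platelets into a clot. Together they held 4 of the 7 peaks, 3 of them inside the genes. The share of all protein-coding genes with a peak was 32.0% within 50 kb and 9.34% in the gene. At least 2 peaks within 50 kb were found for 10.9%. With only these 2 genes, chosen by name with earlier results of these data known, no test against those shares was made. The 2 genes lie on chromosome 11 with 2.14 Mb between them, so no peak was in reach of both.

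Itga2b is 16.6 kb long and lies at 102453297 to 102469883 on the minus strand of chromosome 11. One Gata1 peak, at 102470009 to 102470408, had its midpoint 0.326 kb upstream of the annotated transcription start. The other, at 102463388 to 102463787, was inside the gene, 6.30 kb downstream of the start. The midpoints were 6.62 kb apart. For both peaks Itga2b was the nearest protein-coding gene, and the next nearest, Gpatch8, was 5.70 kb from the upstream peak and 12.3 kb from the internal one. Itga2b is also a neighbour of a red cell gene: 3 further peaks lay outside its 50 kb window and within 100 kb, below the gene, and the closest of these was 75.6 kb away, with Slc4a1, the band 3 anion exchanger of the red cell membrane, as its nearest gene.

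Itgb3 is 62.5 kb long, at 104608000 to 104670476 on chromosome 11. Both of its peaks were inside the gene, at 104618776 to 104619175 and at 104661057 to 104661456. The first was 11.0 kb from the lower-coordinate end and the second 9.22 kb from the higher-coordinate end, with 42.3 kb between their midpoints. The nearest other protein-coding genes were Myl4, 31.8 kb from the first peak, and Efcab13, 29.6 kb from the second. The gene table gives no strand and no promoter was listed for this gene, so upstream and downstream could not be told apart. A further peak at 104550712 to 104551111, inside Myl4, was 57.1 kb below Itgb3 and thus just outside the window, and no assigned peak was farther than 12.6 kb from its gene.

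**Figure D1:**
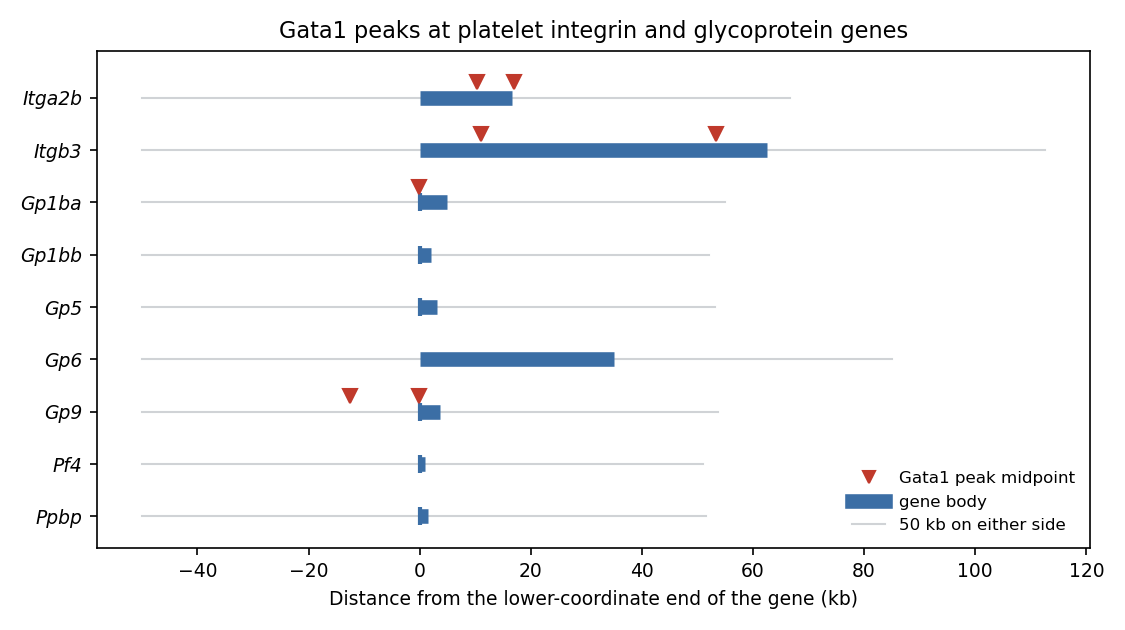
Gata1 peak midpoints (red triangles) around each of the 9 genes (blue bars, with 50 kb on either side in grey), drawn by distance in kb from the lower-coordinate end of each gene. Peaks lay in or beside Itga2b, Itgb3, Gp1ba and Gp9, and the windows of the other 5 genes were empty.

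Of the 4 subunit genes of the GPIb-IX-V complex, 2 carried peaks within 50 kb, against 32.0% of all protein-coding genes. With only 4 genes, that count is not far above what such a share gives. Within 10 kb the count was again 2, against 16.6%. This complex captures von Willebrand factor on exposed collagen, which slows platelets in flowing blood. Gp1ba, which encodes the subunit that binds von Willebrand factor, had 1 peak, and Gp9, a small subunit, had 2. Gp1bb, the partner linked to GP Ib alpha, and Gp5, a subunit that thrombin cleaves, had 0 each.

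The peak at Gp1ba, at 70638807 to 70639206 on chromosome 11, was centred 0.116 kb upstream of the annotated transcription start and 0.0955 kb below the gene body, which runs for 4.88 kb from 70639102 to 70643986. The 400 bp interval covered all 300 bases of the promoter. It is the single peak in a crowded window that holds 10 other protein-coding genes, of which Slc25a11, 5.01 kb from the peak, was the nearest to it. The next Gata1 peaks lay 222 kb above Gp1ba and 399 kb below it.

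At Gp9, on the plus strand at 87776131 to 87779786 on chromosome 6, one peak at 87775870 to 87776269 had its midpoint 0.0615 kb below the gene body. The interval itself reached into the gene. RefSeq lists several transcripts of Gp9, and the start in the promoter table is inside the gene body, so the same peak was 2.00 kb upstream of that start and touched none of the promoter printed above. The other peak, at 87763350 to 87763749, was 12.6 kb below Gp9 and 1.12 kb from Efcc1, its nearest protein-coding gene. It was the only 1 of the 7 peaks that had a gene other than a platelet gene as its nearest, against 6 that had the platelet gene.

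The nearest peak to Gp1bb, on chromosome 16, was 160 kb away inside Txnrd2, and above the gene none was called for 1138 kb. Gp5, also on chromosome 16, had its nearest peak at 238 kb, beside Hes1, a Notch target gene that encodes a transcriptional repressor. The windows of both genes were empty, so 2 of the 4 genes of this receptor complex had no called Gata1 site within 50 kb. Of all protein-coding genes, 32.0% had a peak within 50 kb, so an empty window was the more common case.

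Gp6, Pf4 and Ppbp had no peak in their windows either. Gp6 encodes the immunoglobulin-type receptor GPVI, which signals on contact with collagen. It lies at 4362853 to 4397851 on chromosome 7, and its nearest peak was 105 kb away, inside Ppp1r12c. Pf4 (platelet factor 4) and Ppbp (pro-platelet basic protein) are neighbours on chromosome 5, separated by 2.37 kb in a cluster of CXC chemokine genes with Cxcl5, Cxcl3 and Cxcl15. The flanking peaks were therefore the same for both. The nearest peak was 427 kb from Pf4 and 431 kb from Ppbp, on the higher-coordinate side, and its closest protein-coding gene, Areg, was itself 52.2 kb from that peak. Since the windows of Pf4 and Ppbp overlap almost wholly, these 2 genes are not independent observations. A gene with no called peak may still have had binding below the authors' threshold, which the sources used here do not state.

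The 9 genes thus fell into those with a peak inside them or less than 1 kb away and those with none for more than 100 kb. By midpoint, Itga2b and Itgb3 had a peak in the gene, and Gp9 and Gp1ba one at 0.0615 and 0.0955 kb. Gp6, Gp1bb, Gp5, Pf4 and Ppbp had their nearest peak at 105 to 431 kb. Of the 9, 0 had a nearest peak at 1 to 100 kb, against 32.6% of all protein-coding genes. These limits were not planned beforehand and lie within the gap in these 9 distances. The 0 therefore follows from the choice of limits and is no evidence of a split. The nearest peak was over 100 kb away for 5 of 9, against 56.1% of all protein-coding genes, a share close to that background. The median distance was 105 kb over the 9 genes and 135 kb over all protein-coding genes.

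**Figure D2:**
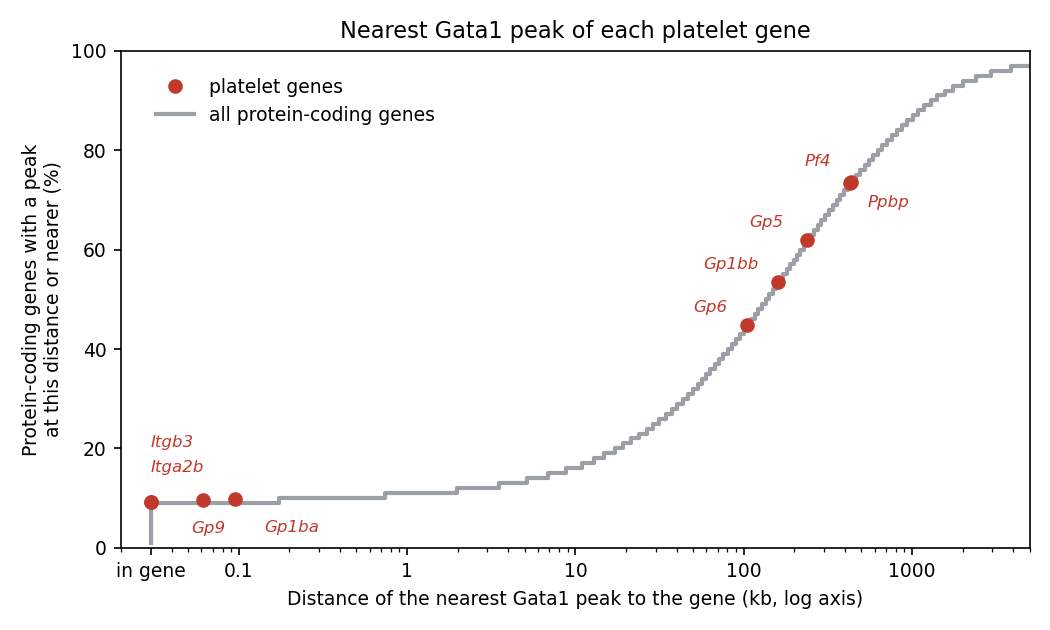
Distance of the nearest Gata1 peak to each platelet gene (red points, kb, log axis, with genes that hold a peak drawn at the left edge), placed on the cumulative share of all 21792 protein-coding genes (grey line, in steps of 1%). Itga2b, Itgb3, Gp9 and Gp1ba sit at the left end and the other 5 genes lie at 105 kb or more.

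The comparison with other genes depended on the window. With 50 kb, 4 of 9 platelet genes (44.4%) and 32.0% of all protein-coding genes had a peak. With 10 kb the count was again 4 of 9, against 16.6% of all protein-coding genes. With 1 kb it was still 4 of 9, against 11.3%. Counting only midpoints in gene bodies, 2 of 9 had a peak (Itga2b and Itgb3), against 9.34%. Peak intervals at Gp1ba and Gp9 also reached into those genes, with midpoints just outside. With 100 kb the 4 of 9 equalled the background of 43.9% to within 1 gene. No test was made, because the genes had been chosen with earlier results of these data known. At least 2 peaks in the 50 kb window were found for 3 of the 9 genes (Itga2b, Itgb3 and Gp9), against 10.9% of all protein-coding genes.

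**Figure D3:**
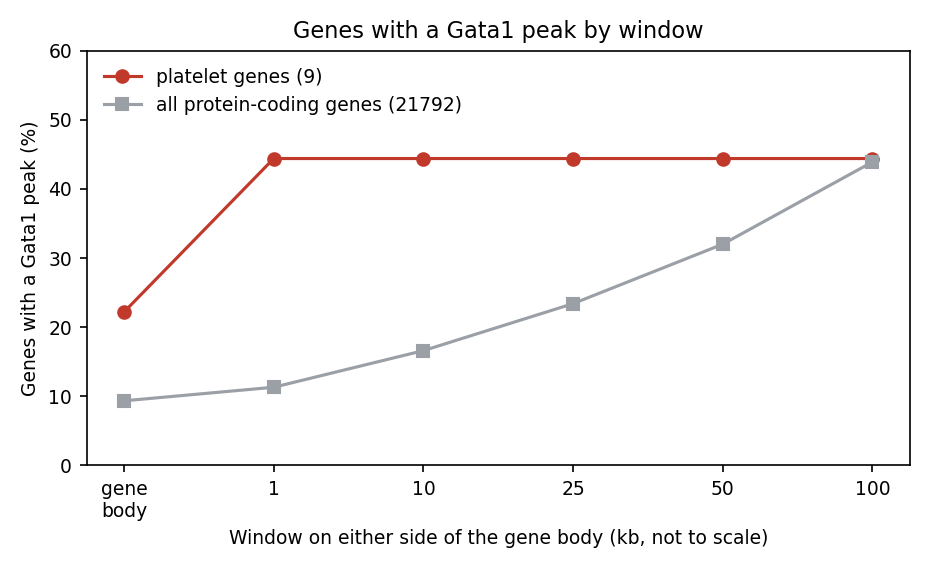
Percentage of the 9 platelet genes (red) and of all protein-coding genes (grey) with a Gata1 peak midpoint in the gene body or within the window given on the horizontal axis in kb. The platelet genes stay at 44.4% from 1 to 100 kb while the share of all genes climbs from 11.3% to 43.9%.

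Chromosome moved with the result. All 3 platelet genes on chromosome 11 (Itga2b, Itgb3 and Gp1ba) had a peak within 50 kb, and 1 of the 6 on other chromosomes did. Among all protein-coding genes the share was 42.5% on chromosome 11 and 31.2% on the other chromosomes, and with 10 kb it was 21.7% and 16.2%. The part of chromosome in the result was not tested. Gene length differed less: 3 of 7 platelet genes under 20 kb had a peak within 50 kb, against 29.5% of protein-coding genes of that length, and 1 of 2 longer ones, Itgb3 with a peak and Gp6 without, against 34.9%.

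The peak interval at Gp1ba covered the annotated transcription start, and that at Itga2b ended 126 bases upstream of it. Of the 8 platelet genes with a listed start, 2 had a peak midpoint within 0.5 kb of it, against 2.93% of the 17492 protein-coding genes with a listed start. Adding Gp9, 3 of 8 had one within 2.5 kb, against 5.87%. A peak interval shared at least 1 base with the printed promoter window for 2 of 8, against 2.40%. These distances to the start were chosen after the positions had been seen.

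GATA letters were found in promoters with and without a peak. The motif GATA, searched on both strands, was present in 7 of 8 promoters, against 57.9% of all 32851 promoters in the table. The longer forms of 6 letters, in which GATA follows A or T and precedes A or G (AGATAA, for example), were present in 5 of 8 (Gp1ba, Gp1bb, Gp5, Gp6 and Pf4), against 29.8%. The promoter under the Gp1ba peak held 3 matches to GATA, all of them also matches to the longer forms, as in cagagagcTGATAAgagccttt, where capitals mark the longer form, whose first base is 104 bases before the start. Its other longer forms begin 51 and 23 bases before the start, both on the opposite strand. Across the table, 12.6% of promoters held at least 3 matches to GATA.

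Gp5, whose nearest peak was 238 kb away, also held 3 longer forms, beginning 115, 93 and 77 bases before its start. Gp6 held 1, in gcaagaagAGATAAgtggtggc, and Gp1bb held 1, in ctccccgcCTATCAtaagggaa, where capitals mark the longer form, read on the opposite strand in Gp1bb. Pf4 held 4 matches to GATA, of which a pair overlap in 1 palindrome, and 1 longer form, downstream of the start. Gp9 and Ppbp held 1 match to GATA each and no longer form. Itga2b had neither in its 300 bases, of which 125 lay under its peak; the rest of that peak interval extends upstream of the window, and its sequence is not used here. Among 100 protein-coding promoters that lay wholly inside a Gata1 peak, as Gp1ba did, 85.0% held GATA and 56.0% a longer form, against 52.9% and 25.7% of the 20811 that no peak touched.

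Other motifs bound by partners of Gata1 were common in all promoters. GGAA, the core of ETS factor sites such as those of Fli1, was present in 8 of 8 platelet gene promoters, against 96.0% of all promoters. There were 7 matches in Gp1ba, 6 in Itga2b, 5 each in Gp1bb and Gp6, 4 each in Pf4 and Ppbp, and 3 each in Gp5 and Gp9. The share of all promoters with that many matches is not given here. CANNTG, the E-box bound by Tal1 and other helix-loop-helix factors, was present in 5 of 8, against 72.3%, and absent from Gp1ba, Gp5 and Gp9. CACCC, the core of Klf factor sites, was present in 6 of 8, against 57.5%. Each was searched on both strands, and a match of letters is not a bound site.

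**Figure D4:**
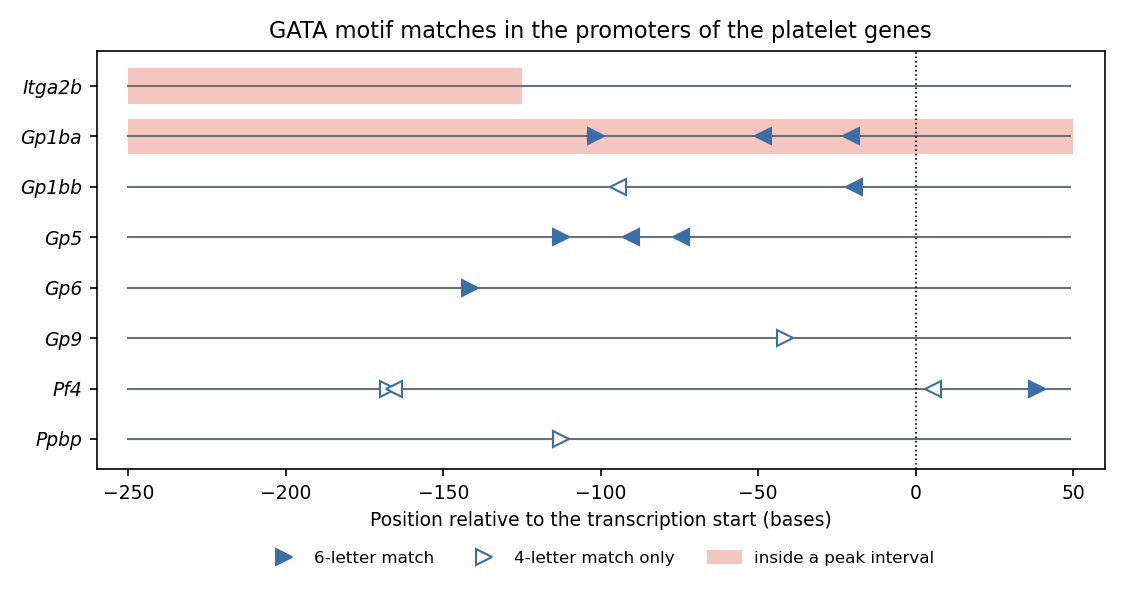
Matches to the GATA motif in the promoters of 8 platelet genes, by position in bases relative to the annotated transcription start (dotted line), with arrows for the strand, filled where a 6-letter form is matched, and shading where a Gata1 peak interval lies. The 3 matches of Gp1ba lie inside its peak, Itga2b has none, and Gp5, Gp6, Gp1bb, Gp9, Pf4 and Ppbp hold matches with no peak over them.

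Other genes were placed beside these 9 in 6 lists with 116 entries, none of whose assigned peaks was shared with the 9 genes. One list holds other integrin genes, whether or not platelets use them, and the rest hold platelet and megakaryocyte genes. Of 19 other platelet receptor genes, 4 had a peak within 10 kb (21.1%, against 16.6% of all protein-coding genes), 9 within 50 kb (47.4%, against 32.0%) and 1 in the gene (5.26%, against 9.34%). P2rx1, an ATP-gated channel of platelets, had a peak centred 0.148 kb from the gene, and Cd9, a tetraspanin of the platelet membrane, one centred at 0.185 kb. F2rl2, a thrombin receptor gene, had 4 peaks in its window, all of them closest to Iqgap2. The windows of Adra2a, an adrenergic receptor gene, and Tbxa2r, the thromboxane receptor gene, held 2 peaks each, and those of Pear1 and F2r held 1 each. Both peaks at Adra2a were closest to it, and none at Tbxa2r, Pear1 or F2r was closest to the gene named. The windows of F2r and F2rl2, both on chromosome 13, share a peak, so these genes are not independent observations.

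The 25 other integrin genes had a peak within 10 kb in 6 cases (24.0%, against 16.6% of all protein-coding genes) and within 50 kb in 10 (40.0%, against 32.0%). Itgb5, a partner of the alphaV subunit, had 4 peaks in its window with 1 inside the gene, Itga11 had 3 with 1 in the gene, and Itga1, a collagen receptor subunit, had 2 in the gene. Itga3 had 4 in its window, with the nearest at 27.7 kb and none closest to it. Itgb7 and Itgb2 had 2 each in their windows, and Itga9 and Itga5 had 1 each. Closest to the gene named were 2 of the peaks at Itgb5, 1 at Itga11, 1 at Itgb7 and 1 at Itga9. None at Itgb2 or Itga5 was closest to that gene. Of the collagen and laminin receptor subunits of platelets, Itga2 had its nearest peak at 79.6 kb, Itga6 at 956 kb and Itgb1 at 1169 kb.

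Of 22 granule and secretion genes, 6 had a peak within 50 kb (27.3%, against 32.0% of all protein-coding genes) and 5 within 10 kb (22.7%, against 16.6%). Vwf, which encodes the ligand of GPIb-IX-V, had 1 peak in the gene, and Vamp8, a SNARE of granule release, had 2. Pdgfb, Vps33b and Nbeal2 had 2 each in their windows, and Unc13d, a priming factor of granule release, had 1. At Pdgfb and Vps33b 1 of the 2 was closest to the gene named, and at Nbeal2 none was. Thbs1, Selp and F5, whose products are also stored in platelets or displayed on release, had their nearest peaks at 711, 731 and 768 kb. Selp is in the receptor list. Of 20 receptor signalling genes, 14 had a peak within 50 kb (70.0%, against 32.0% of all protein-coding genes) and 8 within 10 kb (40.0%, against 16.6%). Prkca, a protein kinase C, had 5 in the gene, Tbxas1, the thromboxane synthase gene, had 3, and Plcg2, a phospholipase downstream of GPVI, had 2, as did Gnaq and Inpp5d. Only 2 of the 4 peaks in the window of Tbxas1 were closest to it. Alox12, the platelet lipoxygenase gene, had 3 in its window, none of them closest to it. Fermt3, encoding the kindlin that activates the alphaIIb integrin, had 6 peaks in its window, none of them closest to it, and Fcer1g, encoding the signalling partner of GPVI, had 5, none of them closest to it.

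Of 14 cytoskeleton and proplatelet genes, 9 had a peak within 50 kb (64.3%, against 32.0% of all protein-coding genes). Within 10 kb there were 4 (28.6%, against 16.6%), namely Tubb1, the platelet beta-tubulin gene, Myh9, Was and Dnm2, each with 1 in the gene. Tuba4a, Flna, Mylk and Gsn had 1 each in their windows, at 15.4 to 28.6 kb, none of them closest to the gene named. Of 16 megakaryocyte transcription factor genes, 15 had a peak within 50 kb (93.8%, against 32.0% of all protein-coding genes) and 14 within 10 kb (87.5%, against 16.6%). Zfpm1 had 8 in the gene, Fli1, an ETS factor of the megakaryocyte lineage, had 4 in its window, and Tal1 and Gfi1b also had 4. Gata2 had 6 in its window, and Etv6, Mrtfa and Runx1 had 3 each. Closest to the gene named were only 1 of the 4 peaks at Tal1, 3 of the 4 at Gfi1b and 4 of the 6 at Gata2. Only Mafg had none within 50 kb. This list holds Gata1 itself and other genes used by red cells and megakaryocytes alike. The median distance to the nearest peak was 0 kb for the transcription factors, 15.4 kb for signalling genes, 27.1 kb for cytoskeleton genes, 66.6 kb for other integrins, 82.9 kb for other receptors and 235 kb for granule genes.

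**Figure D5:**
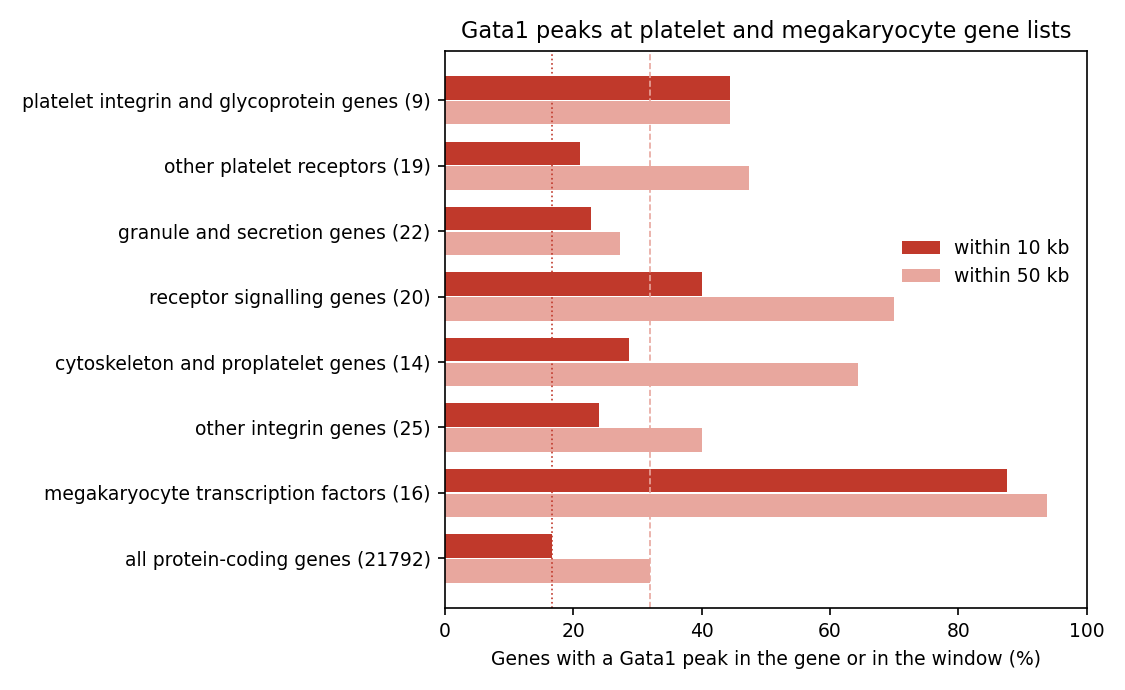
Percentage of genes with a Gata1 peak in the gene or within 10 kb (dark bars) or 50 kb (light bars) for the 9 platelet genes, the 6 other lists and all protein-coding genes, with the number of genes in brackets and the shares of all protein-coding genes as vertical lines. The platelet genes stand at 44.4% in both windows, and the transcription factors at 87.5% and 93.8%.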

How the data were processed

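The authors deposited 1 list of peak positions (chromosome, start, end) for the Gata1 ChIP library, with no header, score, signal or p-value; every interval is 400 bp wide. Per the submitters' processing notes, reads were processed with Bowtie2 2.0.6 and MACS2 2.0.10 on mm10; settings, threshold and use of the control are not known from the sources used here. Per the labels' protocols, cells were fixed with 1% formaldehyde and 7 µg of antibody was used. Depth is unknown, so no interval or floor per peak is given.

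Positions were converted to 1-based and midpoints compared with RefSeq gene bodies (GRCm38.p6), after removal of 340 entries that start below 3 Mb, other than on the Y and the mitochondrial genome, since such positions are scaffold coordinates; 49640 genes remained, 21792 of them protein-coding. All 9 named genes matched, as did the 116 other listed entries, 1 of them by synonym. Lists, members and motifs were chosen with earlier results of these data known, so no list was tested; shares of all protein-coding genes are given instead. Named genes were the 9, the genes holding or nearest to their peaks, and, from each other list, up to 8 genes with the most peaks within 50 kb. One gene that this rule named is not reported here. Members named for lying far from a peak (Itga2, Itga6, Itgb1, Thbs1, Selp, F5 and Mafg), and genes beside peaks outside the windows, were chosen after their values were seen. Assignment was tested on simulated data with a peak placed at a known distance from each of 200 genes. Python 3.11.15, numpy 2.4.6, pandas 2.3.3 and scipy 1.17.1 were used. Windows of 0 to 100 kb, any overlap, nearest gene only, the transcription start, merged peaks and other backgrounds were tried.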

Additional observations from a re-analysis of the deposited data

How the results depend on the processing

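The number of platelet genes with a peak (4 of 9 with 50 kb) was also 4 with 1, 10, 25 and 100 kb, with any overlap, with each peak given only to its nearest gene and with peaks within 1 kb of each other counted once. It was 3 of the 8 genes with a listed start when 50 kb was measured from that start. With midpoints in gene bodies alone it was 2, with 3 peaks in place of 7. The peaks at Gp1ba and Gp9 drop out by construction, although an interval at each reaches into the gene. The number of distinct peaks was 11 with 100 kb, where 3 peaks near Slc4a1 and 1 in Myl4 enter, and 5 to 7 in the remaining alternatives. The share of protein-coding genes with a peak, 32.0% with 50 kb and 32.1% with any overlap, was 9.34% with gene bodies, 11.3% with 1 kb, 16.6% with 10 kb, 23.4% with 25 kb, 43.9% with 100 kb, 13.6% with nearest genes only and 26.8% from the start. It was 29.5% for genes under 20 kb, 34.9% for longer ones, 24.6% with noncoding genes included, and, in a split added after seeing the data, 42.5% on chromosome 11 and 31.2% elsewhere. Promoters with GATA letters numbered 7 of 8, and 5 with the 6-letter forms. No paired analysis was possible because the ChIP is a single library and no result comes from a test. No stricter peak threshold could be applied, since peaks carry no score, and depth could not be examined.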
